A study of Mus musculus with 7 samples.

Results

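The mitochondrial genome genes are the genes that RefSeq places on chromosome MT of the mouse, and 15 of its 37 genes are in the deposited count table of 27179 genes. These are all 13 protein genes and both rRNA genes, and none of the 22 tRNA genes is in that table. They were read in 7 libraries from pharyngeal arches (first and second) of E10.5 mouse embryos, strain C57BL/6. Chromatin immunoprecipitation with an anti-V5 antibody (ChIP-seq) was done on arches homozygous for Moz-Flag-V5-BIO, in which the histone acetyltransferase MOZ (KAT6A) carries a Flag-V5-BIO tag at its carboxy-terminus (V5, 3 libraries). It was also done on wild-type arches, which have no V5 tag and serve as the negative control (WT, 3 libraries). A single input library holds chromatin of tagged arches with no antibody. Whether a replicate stands for its own embryo, litter or pool is not in the labels, so the p-values below measure the spread between libraries, which may be technical.

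Mitochondrial DNA is a small circle present in many copies per cell. It carries no nucleosomes and is packaged mainly by the HMG-box protein TFAM. Its protein genes encode core subunits of respiratory complexes I, III and IV and of ATP synthase, its rRNA genes encode the RNAs of the mitochondrial ribosome, and all other proteins of the organelle come from nuclear genes. The values below are reads of DNA over genes, not expression levels, so the tissue label could not be checked with marker genes. The wild-type libraries give the background, the reads that the same antibody recovers with no tag present.

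The mitochondrial genes took a larger share of reads in all 6 ChIP libraries than in the input, with or without the tag, and in 5 of the 6 by more than counting error. They held 556, 1526 and 3958 reads in V5 replicates 1 to 3, 1627, 1489 and 4213 in WT replicates 1 to 3, and 2306 in the input. Library totals lay between 806648 and 3488745 counts. The share of a library's counts was 0.0689%, 0.134% and 0.120% in V5, 0.126%, 0.112% and 0.168% in WT, and 0.0661% in the input. V5 replicate 1 was alone among the ChIP libraries in lying close to the input.

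Against the input, the share was 1.04-fold in V5 replicate 1, with a 95% exact interval of 0.949 to 1.14 that covers counting error only. It was 2.03-fold (1.90 to 2.16) in V5 replicate 2 and 1.82-fold (1.73 to 1.92) in V5 replicate 3. In WT it was 1.91-fold (1.79 to 2.04), 1.70-fold (1.59 to 1.81) and 2.54-fold (2.42 to 2.68) for replicates 1 to 3. The mean ratio was 1.63 ± 0.520 in V5 and 2.05 ± 0.441 in WT (SD, n = 3 each), and without V5 replicate 1 the V5 mean was 1.92. With 1 input library the spread of the input is unknown, so these ratios have no test. The amount of mitochondrial DNA in the chromatin and how well it was recovered cannot be told apart in such shares.

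The tagged and wild-type libraries overlapped in this share. It averaged 0.108% ± 0.0343 in V5 and 0.136% ± 0.0292 in WT (SD, n = 3 each), a ratio of 0.795 (exact permutation test, two-sided, p = 0.5; groups of 3 cannot give a p below 0.1). The ratio was 0.939 without V5 replicate 1 and 0.904 without WT replicate 3.

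**Figure D1:**
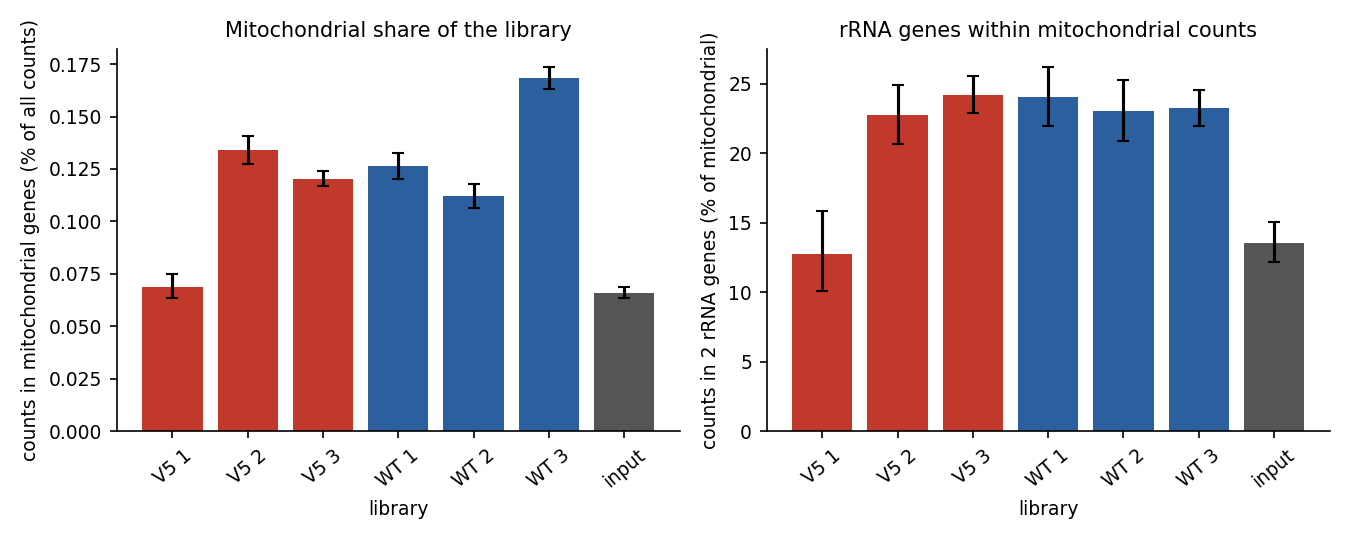
Left, counts in the 15 mitochondrial genes as a percentage of all counts of each library. Right, counts in both rRNA genes as a percentage of the mitochondrial counts. Bars are single libraries (red V5, blue WT, grey input) with 95% exact binomial intervals. V5 replicate 1 sits beside the input in both panels, at 0.0689% against 0.0661% and at 12.8% against 13.6%, and the other 5 ChIP libraries lie above the input.

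The autosomes lay closer to the input than chromosome MT did, and the sex chromosomes varied between single libraries. Over the 19 autosomes the share in a ChIP library divided by the share in the input ranged from 0.693 to 1.22, and the group means ranged from 0.765 to 1.17 in V5 and from 0.759 to 1.14 in WT. The lowest autosome was chromosome 6, which holds Chl1, a gene with a pile-up of reads. Chl1 and Cdk5rap2, also with a pile-up, together held 6.13% of the counts in the input and 2.76% to 4.43% in the ChIP libraries. Leaving Chl1 and Cdk5rap2 out of the totals brought the mean mitochondrial ratio to 1.59 in V5 and 1.99 in WT. Chromosome X ranged from 0.614 to 0.976 between single ChIP libraries, and chromosome Y, with few reads, from 0.454 to 2.26. The lowest X value and the highest Y value were both in WT replicate 2. Its X share was 2.77%, against 3.94% to 4.41% in the other ChIP libraries. What sets this library apart was not tested.

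**Figure D2:**
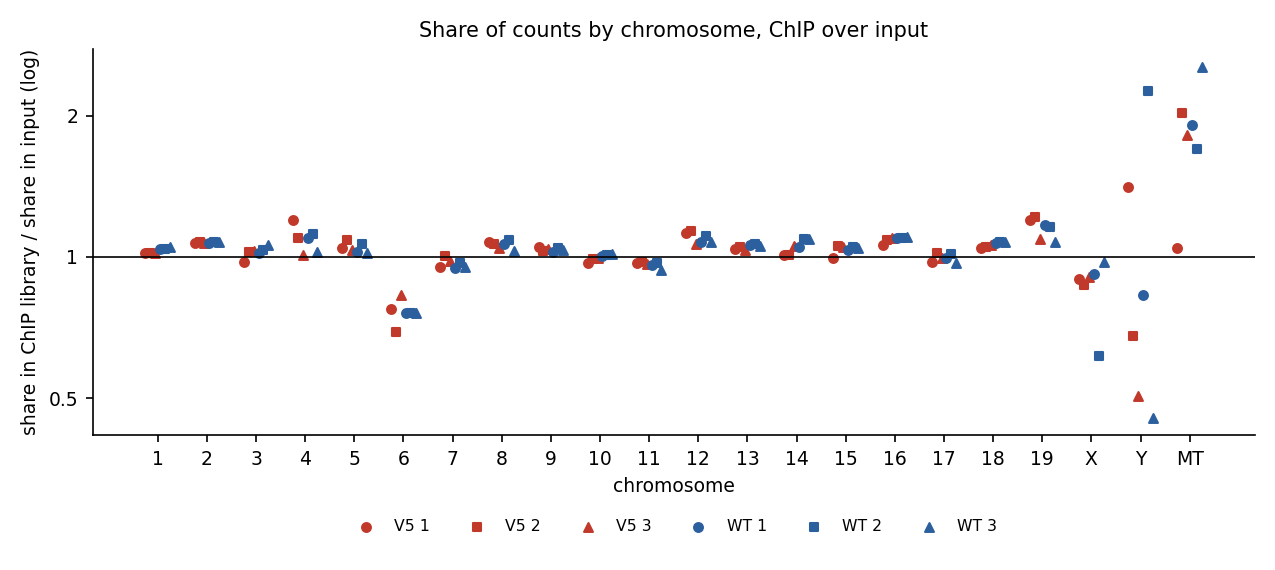
Share of counts on each chromosome in a ChIP library divided by its share in the input, on a log axis (red V5, blue WT, 1 point per library). The autosomes lie between 0.693 and 1.22, while chromosome MT lies between 1.04 in V5 replicate 1 and 2.54 in WT replicate 3.

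Per length, the mitochondrial genes held far more reads than nuclear genes in every library. Their reads per kb were 52.5, 100.4 and 91.3 times those of autosomal genes in V5 replicates 1 to 3, 95.4, 83.6 and 127 times in WT, and 51.8 times in the input. The autosomal value leaves out Chl1 and Cdk5rap2 and was nearly level, at 0.942 to 0.962 counts per 1e6 counts (CPM) per kb in the ChIP libraries and 0.915 in the input. Autosomal genes hold most of each library's counts, so their value is held near level by the scaling to the total. The ratio therefore follows the mitochondrial share, and the recovery of nuclear DNA was not measured.

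Coverage was uneven along the circle, and reads per length are the scale on which the genes can be compared. In the input, ND6 had the highest density with 102 CPM per kb, followed by ND2 with 82.8, CYTB with 75.2 and ND5 with 67.9. The rRNA genes stood at 35.1 (mt-Rnr1) and 35.5 (mt-Rnr2), beside COX1 with 34.9. The lowest were COX2 with 21.4, ATP6 with 17.7, COX3 with 13.5 and ATP8 with 8.43. ND6, a complex I subunit, is the only protein gene encoded on the light strand, but the counts do not separate strands.

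**Figure D3:**
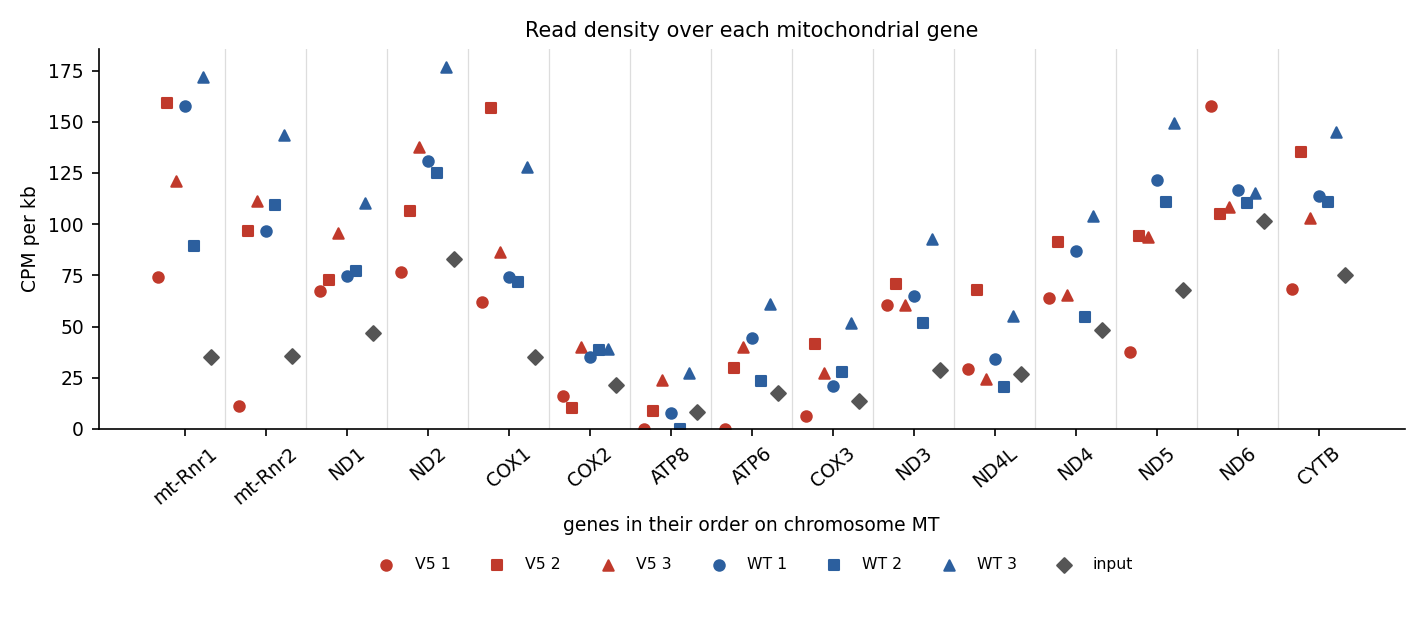
Reads per length (CPM per kb) of each mitochondrial gene, in gene order, with 1 point per library (red V5, blue WT, grey diamonds input). The stretch from COX2 to COX3 is low in all libraries, and in the input COX2 is at 21.4 and ATP8 at 8.43, while ND6 is at 102.

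The 4 neighbouring genes COX2, ATP8, ATP6 and COX3 were low in every library. They make up 16.9% of the summed length of the 15 genes. They held 2.34%, 4.59% and 6.70% of the mitochondrial reads in V5 replicates 1 to 3, 5.72%, 5.71% and 6.81% in WT, and 5.90% in the input. V5 averaged 4.54% ± 2.18 and WT 6.08% ± 0.635 (SD, n = 3 each, two-sided exact permutation p = 0.3). ND4L, outside this stretch, was about as low in WT, with a mean of 36.5 CPM per kb beside 37.6 in COX2 and 42.9 in ATP6. In V5 ND4L averaged 40.6 ± 23.9, beside 22.2 ± 15.7 in COX2 and 23.1 ± 20.7 in ATP6 (SD, n = 3 each), so these means overlapped within their spread. ND4L lay above both genes in V5 replicates 1 and 2, where it had only 7 and 23 reads. In V5 replicate 3 the order was reversed, with ND4L at 24.6 CPM per kb, below COX2 and below ATP6 at 39.8. COX2 and COX3 are catalytic-core subunits of cytochrome c oxidase, and ATP8 and ATP6 belong to the membrane part of ATP synthase. ATP8 and ATP6 overlap in 43 bases, of 204 in ATP8, and reads in an overlap may have been left unassigned.

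At least part of this stretch also has a nuclear copy in the annotation. RefSeq (GRCm38.p6, the assembly of build mm10) lists the pseudogene Gm10925 at chr1:24613971-24614651, with mt-Atp6 among its synonyms and the same length of 681 bases as ATP6. The pseudogene Gm10222 at chr1:24612404-24612700 has the 297 bases of ND4L. These pseudogenes are 1270 bases apart, and ATP6 and ND4L are 1269 bases apart on chromosome MT, with COX3 and ND3 between them. Neither pseudogene is in the count table. Reads that match both places could have been lost or split, so the values of ATP6, COX3, ND3 and ND4L are uncertain; the part of this copy in their low density was not tested.

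Within the mitochondrial reads, the rRNA genes took a larger part in 5 of the 6 ChIP libraries than in the input. They held 12.8%, 22.7% and 24.2% of the mitochondrial counts in V5 replicates 1 to 3, 24.0%, 23.0% and 23.3% in WT, and 13.6% in the input, where they make up 18.2% of the summed length. The 95% exact intervals were 20.7% or higher at their lower end in those 5 libraries and 12.2% to 15.0% in the input. The averages were 19.9% ± 6.23 in V5 and 23.4% ± 0.522 in WT (SD, n = 3 each), which did not differ beyond the spread of the libraries (two-sided exact permutation p = 0.5). The difference of -3.53 percentage points rested on V5 replicate 1, and without that library it was 0.0413.

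The small rRNA gene mt-Rnr1 (GeneID 17724, MT, 70 to 1024), which encodes the 12S RNA, had 70.7, 152 and 116 CPM in V5 replicates 1 to 3, 151, 85.1 and 164 CPM in WT, and 33.5 CPM in the input. All 6 ChIP libraries were above the input, and V5 and WT overlapped. Its mean was 3.36-fold the input in V5 and 3.97-fold in WT, the highest ratio among the 15 genes in both groups. The log2 fold change of V5 over WT was -0.22 (SE 0.28, edgeR adjusted p = 0.988).

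The large rRNA gene mt-Rnr2 (GeneID 17725, MT, 1094 to 2675), which encodes the 16S RNA, had 17.4, 153 and 176 CPM in V5, 153, 173 and 227 CPM in WT, and 56.2 CPM in the input. V5 replicate 1 was below the input with 14 reads, while the other 5 ChIP libraries were 2.72-fold to 4.04-fold above it. The neighbouring mt-Rnr1 had 57 reads in V5 replicate 1. The means stood at 2.06-fold the input in V5 and 3.28-fold in WT, and the log2 fold change of V5 over WT was -0.64 (SE 0.69, edgeR adjusted p = 0.984).

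Complex I, the NADH dehydrogenase that passes electrons to ubiquinone, has 7 subunits among these genes. ND5 (GeneID 17721, MT, 11742 to 13565), a proton-pumping subunit, had 68.2, 172 and 171 CPM in V5, 222, 202 and 272 CPM in WT, and 124 CPM in the input. It was the only member in which every V5 library lay below every WT library, and none lay wholly above; over all genes tested 5.27% lay wholly below and 4.83% wholly above. Its log2 fold change of V5 over WT was -0.73 (SE 0.25), and the gene was not called (edgeR adjusted p = 0.980, unadjusted p = 0.00752). ND5 stood at 1.11-fold the input in V5 and 1.87-fold in WT, and V5 replicate 1 was 0.551-fold the input.

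ND6 (GeneID 17722, MT, 13552 to 14070) lies beside ND5 on the other strand, with 14 bases shared. It had 81.8, 54.5 and 56.3 CPM in V5, 60.5, 57.3 and 59.9 CPM in WT, and 52.7 CPM in the input. The WT libraries were nearly equal, V5 replicate 1 was the highest at 1.55-fold the input, and the other 5 ChIP libraries were 1.03-fold to 1.15-fold the input. ND6 had the lowest WT ratio to the input of all 15 genes, 1.13-fold, beside 1.22-fold in V5. Its part of the mitochondrial reads was 11.9%, 4.06% and 4.67% in V5, 4.79%, 5.10% and 3.56% in WT, and 7.98% in the input.

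Of the other complex I genes, ND1 (MT, 2751 to 3707) had 64.5, 69.4 and 91.6 CPM in V5, 71.4, 73.8 and 105 CPM in WT, and 45.0 CPM in the input, so that all ChIP libraries were above the input and the groups overlapped. ND2 (MT, 3914 to 4951) had 79.3, 111 and 143 CPM in V5, 136, 129.6 and 183 CPM in WT, and 86.0 CPM in the input. Here V5 replicate 1 alone was below the input, and the log2 fold change of V5 over WT was -0.40 (SE 0.25, edgeR adjusted p = 0.980). ND4 (MT, 10167 to 11544) was above the input in all 6 ChIP libraries, by 1.13-fold to 2.14-fold. ND3, a short subunit gene (MT, 9459 to 9806), was above it by 1.80-fold to 3.22-fold, also in all 6. ND4L (MT, 9877 to 10173) had only 7, 23 and 24 reads in V5, 13, 8 and 41 in WT, and 28 in the input, and its ratios to the input lay on both sides of 1.

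CYTB (GeneID 17711, MT, 14145 to 15288), the only subunit of complex III encoded here, had 78.1, 155 and 118 CPM in V5, 130.4, 127 and 166 CPM in WT, and 86.0 CPM in the input. V5 replicate 1 was below the input and the other 5 ChIP libraries above it, and V5 and WT overlapped. The log2 fold change of V5 over WT was -0.25 (SE 0.25, edgeR adjusted p = 0.982).

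COX1 (GeneID 17708, MT, 5328 to 6872), which encodes the heme-copper subunit of cytochrome c oxidase, had 95.5, 242 and 133 CPM in V5, 115, 111 and 198 CPM in WT, and 53.9 CPM in the input. V5 replicate 2 was the highest, with 18.1% of its mitochondrial reads in this gene, against 9.10% to 11.7% in the WT libraries and 8.15% in the input. All 6 ChIP libraries exceeded the input, with means of 2.91-fold in V5 and 2.62-fold in WT. The log2 fold change of V5 over WT was 0.17 (SE 0.28, edgeR adjusted p = 0.988), and -0.27 without V5 replicate 2.

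COX2 (MT, 7013 to 7696) had 11.2, 7.03 and 27.4 CPM in V5, 24.1, 26.4 and 26.8 CPM in WT, and 14.6 CPM in the input. The WT libraries were all above the input, whereas V5 replicates 1 and 2 were below it and replicate 3 was the highest of the 7 libraries. COX3 (MT, 8607 to 9390) had 4.96, 32.5 and 21.3 CPM in V5, 16.3, 21.8 and 40.7 CPM in WT, and 10.6 CPM in the input. V5 replicate 1 was again the only ChIP library below the input.

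ATP6 (GeneID 17705, MT, 7927 to 8607), the proton channel subunit of ATP synthase, had 0, 23 and 89 reads in V5, 39, 21 and 104 in WT, and 42 in the input. The absence of reads in V5 replicate 1 allows up to 3.72 CPM there, taking 3 counts as the limit that a count of 0 leaves. That limit covers counting error only and not the spread between libraries. The input stood at 12.0 CPM and the other ChIP libraries at 15.8 CPM or more. ATP8 (GeneID 17706, MT, 7766 to 7969) had 0, 2 and 16 reads in V5, 2, 0 and 14 in WT, and 6 in the input, too few to compare.

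**Figure D4:**
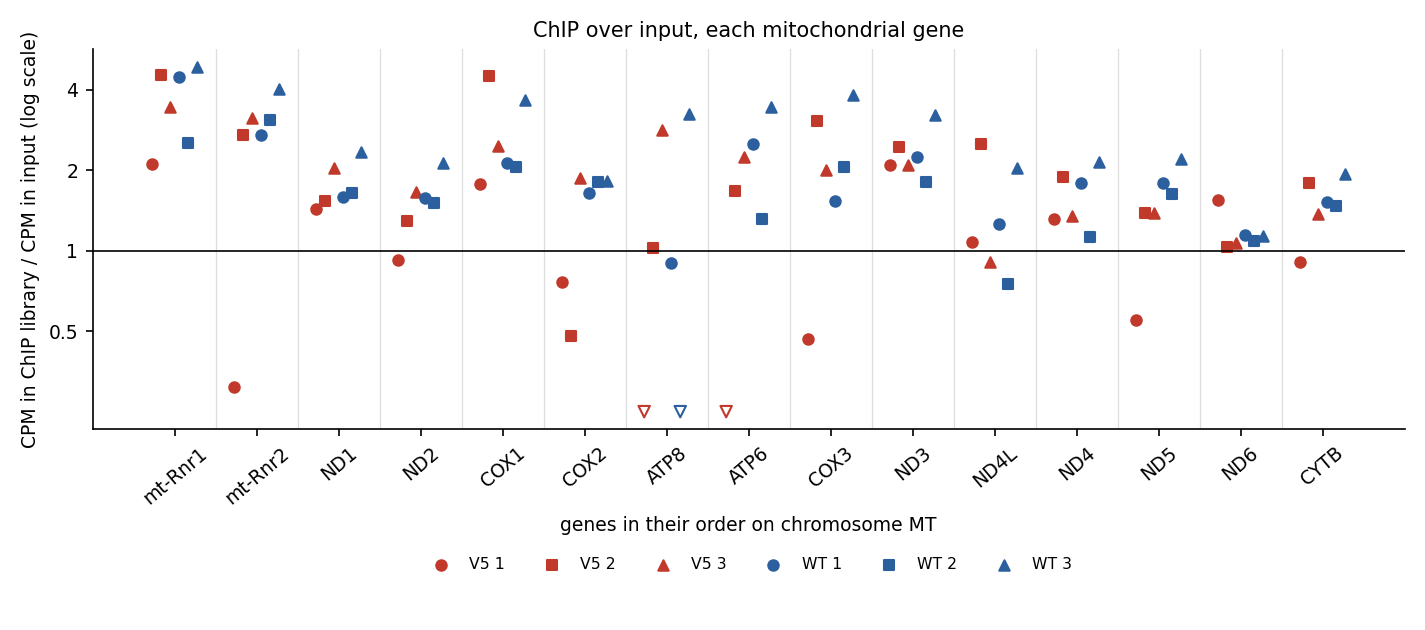
CPM of each mitochondrial gene in a ChIP library divided by CPM in the input, in gene order, on a log axis (red V5, blue WT; circles, squares and triangles are replicates 1, 2 and 3). Open triangles at the lower edge mark libraries with 0 reads, in ATP8 and ATP6. The mt-Rnr1 points lie between 2.11 and 4.89, the ND6 points between 1.03 and 1.55, and V5 replicate 1 is below 1 in ND5, at 0.551, and in mt-Rnr2, at 0.309.

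Gene by gene against the input, 14 of the 15 members had enough reads to be read this way (at least 70 counts over the 7 libraries; ATP8 did not). More than 2-fold above the input were 4 of the 14 in V5, namely mt-Rnr1, mt-Rnr2, COX1 and ND3, and 6 of the 14 in WT, namely these 4 with ATP6 and COX3. Over all 16736 genes with as many reads, 9.24% were that far above the input in V5 and 6.56% in WT. Among the 18 such genes of up to 2000 bp outside chromosome MT, a comparison chosen after the values were seen, 22.2% were more than 2-fold above the input in V5 and 16.7% in WT. None of the 14 members was more than 2-fold below the input on average, where 8.86% of all genes were in V5 and 7.25% in WT. V5 and WT share the one input, so their counts are given side by side only.

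The median ratio of the 14 genes was 1.52-fold in V5 and 1.87-fold in WT, on the log2 scale 0.61 and 0.90, where the median of all genes was 0.04 and 0.00. All 14 were above the input on average in both groups, against 52.3% of all genes in V5 and 50.1% in WT. Above the input in each of the 6 ChIP libraries were 6 members, mt-Rnr1, ND1, COX1, ND3, ND4 and ND6, against 11.6% of all genes. Without V5 replicate 1 it was 12 of the 14, all but COX2 and ND4L, against 16.5% of all genes. The 14 members lie on 1 circle of DNA and are not independent of each other.

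The tagged and wild-type libraries were compared gene by gene with edgeR's quasi-likelihood test over 14575 genes, and 14 members passed the filter on low counts, all but ATP8. No member was called in either direction at an adjusted p of 0.05, and neither was any gene of the table (0%). At an unadjusted p under 0.05 there was 1 member, ND5, lower in V5, where 1.38% of all genes were lower in V5 at that level. DESeq2 also called 0 members, with 1 at an unadjusted p under 0.05. The smallest adjusted p among the members was 0.980 with edgeR.

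Of the 14 members 11 had a negative log2 fold change of V5 over WT, with a median of -0.24, while 48% of all genes tested were negative, with a median of 0.02. This lean rested partly on 1 library, since without WT replicate 3 it was 7 of 14 with a median of 0.00. Single values ranged from -0.82 in ATP6 (SE 0.70) to 0.17 in COX1, and standard errors from 0.25 to 0.74. COX1, ND4L and ND6 were the 3 positive genes.

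**Figure D5:**
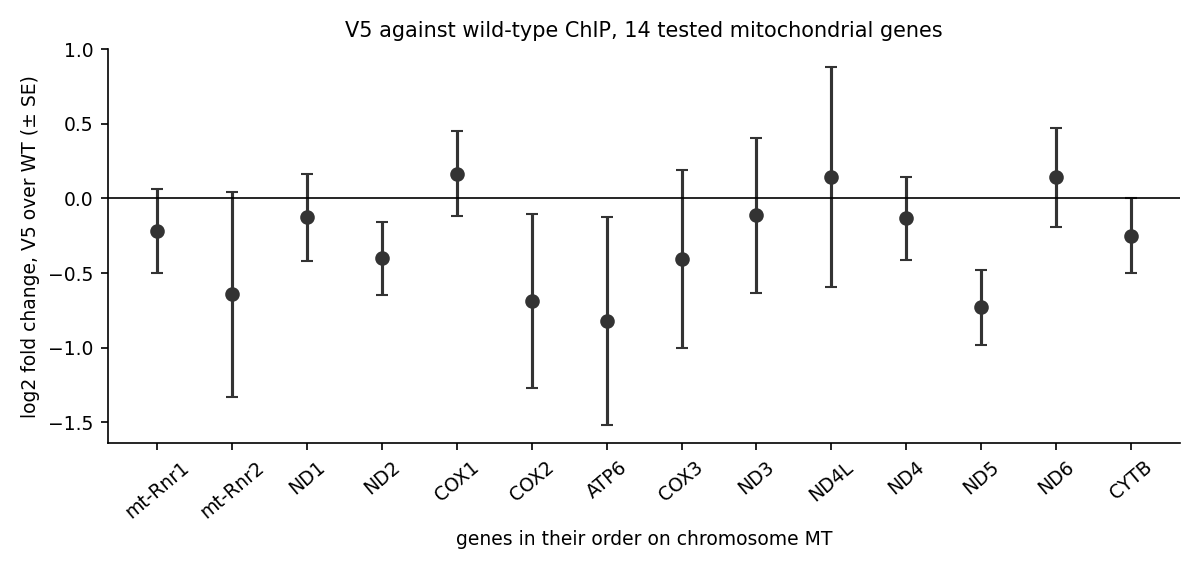
Log2 fold change of V5 over WT with its standard error for the 14 tested mitochondrial genes, in gene order. ND5, at -0.73 (SE 0.25), lies farthest from 0 relative to its error, and 11 of the 14 points lie below 0.

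V5 replicates 1 and 2 stood apart from the other ChIP libraries in how their reads were divided over genes, the mitochondrial genes and all genes alike. The chi-square per degree of freedom between 2 libraries, which is near 1 when they differ only by sampling, was 2.32 to 3.29 over the mitochondrial genes among V5 replicate 3 and the WT libraries. It was 9.17 to 13.0 for V5 replicate 1 against the other ChIP libraries, and 5.84 to 8.84 for V5 replicate 2 against V5 replicate 3 and the WT libraries. Over all genes the same pairs stood at 3.73 to 4.86 among V5 replicate 3 and the WT libraries, at 6.24 to 8.21 for V5 replicate 1 and at 6.92 to 8.33 for V5 replicate 2. Against the input the ChIP libraries stood at 6.29 to 15.7 over the mitochondrial genes and at 9.59 to 12.9 over all genes. Where libraries differ beyond sampling, this measure grows with the reads per gene, and the input was the deepest library. Its values are therefore not comparable with those between ChIP libraries, nor are values over mitochondrial genes with those over all genes. Every pair was above 1, so the counting intervals given above do not cover the spread between libraries.

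Nuclear genes that serve mitochondria were near or below the input in both groups. They were taken as 7 lists, the nuclear subunits of complexes I to IV and of ATP synthase, genes of mitochondrial DNA replication and transcription, and genes of mitochondrial RNA processing and translation. The summed reads of a list were between 0.924-fold and 1.07-fold the input in V5 and between 0.655-fold and 0.957-fold in WT, where the lowest was complex IV. Its 15 genes held 88.1 ± 22.7 CPM in V5 and 55.6 ± 21.3 CPM in WT (SD, n = 3 each), against 84.8 CPM in the input.

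Of the 146 nuclear genes, 145 were in the table and 70 were tested between V5 and WT, and 0 were called higher and 0 lower (smallest edgeR adjusted p 0.980). Log2 fold changes were above 0 in 39 and below 0 in 31. The medians of the lists ran from -0.53 for 5 ATP synthase genes to 1.12 for 3 complex IV genes, beside 0.02 for all genes. The genes with the smallest p in each list, up to 4 a list and 25 in all, had log2 fold changes between -1.20 and 1.70. Of these, 17 were above 0 and 8 below, but they were picked by p, so this split does not describe the lists. Mrpl13 alone had an unadjusted edgeR p under 0.05, which makes 1 of the 70 tested. Over all 14575 genes tested, 600 were under that level. Cox5a, a structural subunit of cytochrome c oxidase, had 45, 20 and 43 reads in V5, 0, 11 and 44 in WT, and 57 in the input, a log2 fold change of 1.70 (SE 0.83). Mrpl13, of the large subunit of the mitochondrial ribosome, had 37, 40 and 72 reads in V5, 13, 29 and 35 in WT, and 39 in the input, a log2 fold change of 1.19 (SE 0.55). Of the same list, Mrpl3 stood at 0.89 (SE 0.55), Mrps30 at 1.32 (SE 0.86) and Mtrf1, a mitochondrial translation factor, at -0.78 (SE 0.49). Of the DNA replication and transcription list, Ssbp1, the single-stranded DNA-binding protein of mitochondrial DNA replication, stood at -0.96 (SE 0.68) and Tfb1m, which methylates the 12S RNA, at 0.68 (SE 0.49). Among the nuclear subunits, Cox6b1 of complex IV stood at 1.12 (SE 0.77), Ndufv2 of complex I at -0.70 (SE 0.56), Sdha of complex II at 0.40 (SE 0.51), Uqcrc2 of complex III at 0.56 (SE 0.52) and Atp5j2 of ATP synthase at -1.20 (SE 0.95).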

How the data were processed

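For each of 7 libraries the authors deposited raw counts of reads by gene, beside a gene identifier and length, per the file headers. Software named in the submitters' processing notes comprises featureCounts, bcl2fastq and MACS, with mm10 as the build. Not given in the sources used here are the aligner, how duplicate and multiply mapped reads were treated, and the settings of the counting. Gene places came from the RefSeq table of GRCm38.p6, matched by gene identifier (25275 identifiers). The deposited length equalled the RefSeq length in all 15 members. No column lacked a sample.

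Shares are counts in the members divided by the library total, CPM is counts per 1e6 counts of the library, and CPM per kb uses the deposited length. Intervals are 95% exact binomial intervals (for ratios, conditional on the summed count) and cover counting error only. The V5 against WT fit used edgeR 4.0.16 under R 4.3.3 (filterByExpr with a count minimum of 10, TMM, glmQLFit with robust estimation, glmQLFTest, Benjamini-Hochberg over all genes tested, threshold 0.05), with DESeq2 1.42.0 as an alternative. The procedure was tested on simulated data with the same spread setting for every gene. These data lacked the library-specific splits of reads over genes described above, so that test does not show how the procedure performs on these libraries. Ratios to the input compare mean CPM, after adding a prior count of 0.5. Single values were compared by two-sided exact permutation tests (scipy 1.17.1). The rule for named genes was every member and, of each nuclear list, up to 4 tested genes with the smallest p, summarised together. The first of each list was given by value, and so were Mrpl3, Mrps30, Mtrf1, Tfb1m and Cox6b1 from among the rest. Members and lists were chosen with earlier results of these data known. Alternatives changed the normalization, filter, tool, denominator, prior count, replicate block and libraries used.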

Additional observations from a re-analysis of the deposited data

How the results depend on the processing

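The number of mitochondrial genes called between V5 and WT was 0 under RLE size factors, no filter, DESeq2, the replicate block and without each replicate. Over all genes, 9 were called with no filter, 2 without V5 replicate 2, 1 without V5 replicate 3 and 1 under the replicate block, against 0 otherwise, and no member was among them. The V5 over WT ratio of the mitochondrial share, 0.795, ranged from 0.699 to 0.939 without single replicates, and was 0.776 with the replicate block (two-sided exact sign-flip p = 0.5, where 0.25 is the smallest possible). Same-numbered libraries showed little shared deviation (correlations 0.01, 0.01 and 0.05), and differently numbered ones lay between -0.05 and 0.02. With counts this sparse, such values cannot decide whether the numbers pair the samples. The mean ratio to the input ranged from 1.43 to 1.92 in V5 and from 1.80 to 2.23 in WT without single replicates. The members more than 2-fold above the input numbered 3 to 5 in V5 and 4 to 6 in WT.

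The V5 minus WT difference in the rRNA part of the mitochondrial reads, -3.53 percentage points, ranged from -5.69 to 0.0413 without single replicates and turned sign without V5 replicate 1. Log2 fold changes that turned sign when 1 replicate was left out, none of them called, ranged from -0.27 to 0.0692 for ND1, -0.27 to 0.49 for COX1, -0.89 to 0.0546 for COX3, -0.29 to 0.15 for ND3, -0.44 to 0.58 for ND4L, -0.36 to 0.0711 for ND4 and -0.12 to 0.26 for ND6. The planned test of the tRNA genes was not run, as none of the 22 is in the count table. Depth limits ATP8, ND4L and the lower-depth V5 replicate 1 most.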
